A study of Mus musculus with 6 samples.

Results

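Histone lysine methyltransferases and demethylases write and erase the methyl groups that mark active and silent chromatin, and their transcripts were examined in RNA-seq of muscle stem cells (MuSCs) sequenced directly after isolation. The set held 47 genes listed by symbol, with 27 writers, 16 erasers and 4 related proteins without a settled histone site. All 47 were among the 22081 genes of the deposited table, and all 47 were among the 18562 genes that reached the minimum mean of 5 normalized counts over the 6 libraries. A normalized count is the number of reads assigned to a gene divided by a size factor of its library. In the libraries labelled Taf4asKO, 8 of the 47 transcripts were lower than in control and 1 was higher, where 6.71% and 5.93% of all tested genes were, and these came from the H3K9, H3K36, H3K79 and H4K20 enzymes and, for the rise, from the H3K4 writers.

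The comparison was between 3 control libraries and 3 libraries labelled Taf4asKO, all from C57BL/6 mice. Taf4asKO mice carried a tamoxifen-inducible Cre recombinase driven by Pax7 (Pax7CreERT) and loxP sites in both copies of Taf4a (Taf4a fl/fl), and Cre activity removes internal exons of Taf4a, which encodes a subunit of the general transcription factor TFIID, in cells that express Pax7. The control libraries have WT in their titles and Control as their genotype label. The study describes its controls as littermates that also carried Taf4a fl/fl, with or without the Cre allele, lists wild type C57BL/6 mice besides, and names tamoxifen for the Taf4asKO mice. Which of these mice gave the sequenced controls is not given in the sources used here. The study as a whole used adult mice of both sexes, and some of its animals carried a Pax7-zsGreen reporter. Each library came from 90000 sorted cells and 10 ng of total RNA. How many animals contributed to a library is not given in the sources used here, so the p-values measure the spread between these libraries.

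Methylation of histone lysines does not change the charge of the residue but is read by binding proteins. H3K4 methylation marks promoters and enhancers, and H3K36 and H3K79 methylation mark transcribed gene bodies. H3K27 methylation by Polycomb repressive complex 2 (PRC2) marks silenced developmental genes, and trimethylation of H3K9 and H4K20 marks constitutive heterochromatin. Quiescent MuSCs are small cells with condensed chromatin, and the study addressed whether chromatin regulators depend on Taf4a in them.

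The promoters of the 4 members with the largest falls, and of Suv39h1, the paralog of one of them, are shown because the comparison turns on these genes and because TFIID acts at promoters. Each sequence is the 250 bases directly upstream of the transcription start in RefSeq (GRCm38.p6, the mm10 assembly), written 5′ to 3′ on the strand of the gene, with capitals marking the letters CCAAT or GGGCGG read on either strand (ATTGG and CCGCCC on the opposite strand). The position is given before each sequence. Kdm8 lies on the + strand at chr7:125444370-125444619, Suv39h2 on the - strand at chr2:3474987-3475236, Smyd5 on the + strand at chr6:85431726-85431975, Kmt5a on the + strand at chr5:124439680-124439929 and Suv39h1 on the - strand at chrX:8074761-8075010.
Kdm8: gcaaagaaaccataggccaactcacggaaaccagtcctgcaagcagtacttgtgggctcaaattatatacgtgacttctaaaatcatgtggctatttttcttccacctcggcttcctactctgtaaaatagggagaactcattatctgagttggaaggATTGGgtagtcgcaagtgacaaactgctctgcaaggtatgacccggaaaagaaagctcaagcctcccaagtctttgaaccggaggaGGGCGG
Suv39h2: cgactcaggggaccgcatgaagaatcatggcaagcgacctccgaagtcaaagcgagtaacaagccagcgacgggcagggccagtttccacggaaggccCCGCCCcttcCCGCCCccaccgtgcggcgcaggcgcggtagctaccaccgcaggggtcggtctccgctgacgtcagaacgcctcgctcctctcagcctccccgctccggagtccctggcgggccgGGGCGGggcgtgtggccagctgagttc
Smyd5: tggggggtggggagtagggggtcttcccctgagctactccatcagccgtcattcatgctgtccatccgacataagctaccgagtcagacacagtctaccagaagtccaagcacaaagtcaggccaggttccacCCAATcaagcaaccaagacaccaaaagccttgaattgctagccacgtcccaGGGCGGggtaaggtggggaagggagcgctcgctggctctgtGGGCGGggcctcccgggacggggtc
Kmt5a: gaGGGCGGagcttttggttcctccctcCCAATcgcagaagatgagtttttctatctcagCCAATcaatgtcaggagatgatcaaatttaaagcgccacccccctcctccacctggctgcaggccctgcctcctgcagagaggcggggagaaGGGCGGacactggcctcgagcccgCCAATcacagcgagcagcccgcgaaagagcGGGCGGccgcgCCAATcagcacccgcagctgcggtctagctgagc
Suv39h1: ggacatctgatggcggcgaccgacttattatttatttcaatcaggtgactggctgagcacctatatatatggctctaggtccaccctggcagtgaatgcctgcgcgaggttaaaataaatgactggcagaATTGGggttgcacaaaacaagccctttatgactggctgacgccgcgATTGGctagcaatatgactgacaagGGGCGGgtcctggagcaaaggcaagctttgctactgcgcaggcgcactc

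The search was for letters alone. The CCAAT letters occurred once upstream of Kdm8 and Smyd5, 4 times upstream of Kmt5a, 2 times upstream of Suv39h1 and not at all in the Suv39h2 window. GGGCGG, the core letters of a GC box, was present in all 5 windows shown. A promoter was matched for 34 of the 47 members. The matched start lay 27570 bases from the 5′ end of the gene for Setd5, 724 for Kdm2b and 719 for Setd1a. It was closer in the other matched members. GGGCGG was found in 7 of the 7 matched members that were lower, in 16 of the 27 matched members that did not pass, and in 57.8% of the 11538 tested genes with a matched promoter. CCAAT was found in 3 of the 7, in 11 of the 27 and in 35.7% of the tested genes. No CCAAT match overlapped a GGGCGG match in the sequences shown. Whether the letters are bound was not tested.

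Total normalized counts lay between 12338676 and 14551732 per library. Across genes, log2 values of libraries of the same group correlated at 0.961 to 0.984 (Pearson's r), and those of different groups at 0.945 to 0.966. The gene total of Taf4 (the current symbol of Taf4a) was 613, 534 and 478 normalized counts in control, against 631, 565 and 574 in Taf4asKO libraries (log2 fold change 0.13, SE 0.12, adjusted p = 0.524 by limma). That total counts reads over all exons while only internal exons are floxed, so it cannot show whether the floxed exons were lost. Why the total was not lower was not tested. MuSC markers were abundant in all libraries, with Pax7 between 10363 and 13007, but the summed level of 10 of them was 53179 to 58142 in control and 50508 to 51927 in the libraries labelled Taf4asKO. Of these 10, 4 were past the threshold downwards (Myf5, Fgfr4, Cdh15 and Itga7) and 2 upwards (Vcam1 and Sdc4). Marker genes of other cell types moved with the labels too. The summed level of 8 Schwann cell markers was 3242 to 5774 in control and 6887 to 8169 in the libraries labelled Taf4asKO, with 6 of the 8 past the threshold upwards and 1 downwards, and the sum of 8 endothelial markers was 915 to 1372 against 1489 to 1952, with 0 of the 8 past the threshold by limma (6 with an unadjusted p under 0.05) and 3 higher with the replicate number as block. The sum of 10 fibro-adipogenic markers was 70431 to 100217 against 58165 to 82313, with 3 of the 9 tested past the threshold downwards (Col3a1, Cd34 and Dpt) and 1 upwards (Gsn), and the median log2 fold change of the list was 0.77. Blocking on the replicate number, 5 of these markers were higher (Pdgfra, Dcn, Lum and Col1a1 in addition to Gsn) and 3 lower. The sum of the 3 immune markers in the table (Cd68, Csf1r and Lyz2) was 422 to 538 against 666 to 924, but Lyz2 alone had a positive log2 fold change (Cd68 was at -0.03 and Csf1r at -0.56), and none of the 3 passed by limma (1 with an unadjusted p under 0.05). With the replicate number as block, Lyz2 passed upwards (adjusted p = 0.00396 by limma) and the others did not pass. Sums of 8 mature fibre markers (5726 to 14115 against 6793 to 12260) and of 6 smooth muscle and pericyte markers (24480 to 28625 against 24348 to 28579) overlapped, although 2 of these 6 (Rgs5 and Myh11) were past the threshold upwards, and 4 with the block. Per the study's methods, the sort depleted cells with SCA1, CD45 or CD31 on their surface and then collected Integrin-a7+ or GFP+ cells, a gate meant to remove fibro-adipogenic, immune and endothelial cells. The study reports less than full purity when sorted cells were reanalysed. The part of any other cell types in the results on the enzymes was not tested. In bulk RNA, fewer cells of a type and less RNA per cell cannot be told apart.

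The threshold was an adjusted p under 0.05 over all tested genes by limma together with a fold change of at least 1.3. By that rule 8 of the 47 members were lower (17.0%), where 6.71% of all tested genes were, and 1 was higher (2.13%), where 5.93% of all tested genes were. The count depended on single libraries. Of the 8, Kdm8 alone passed without Taf4asKO replicate 2 and Smyd5 alone without Taf4asKO replicate 3. The enzymes are more abundant than most genes, with a median of 1120 normalized counts against 100.7, and among tested genes with a mean of at least 50 the background was 9.71% lower and 9.33% higher. The median log2 fold change was -0.05 over the 47 members and 0.0040 over all tested genes, and 30 members had negative and 17 positive values. Control and Taf4asKO values did not overlap for 24 members (51.1%), 15 lower and 9 higher, against 33% of all tested genes and 40.4% of those with a mean of at least 50. Of the 38 members that did not pass, 33 had a 95% interval that lay within a 1.5-fold change in either direction.

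**Figure D1:**
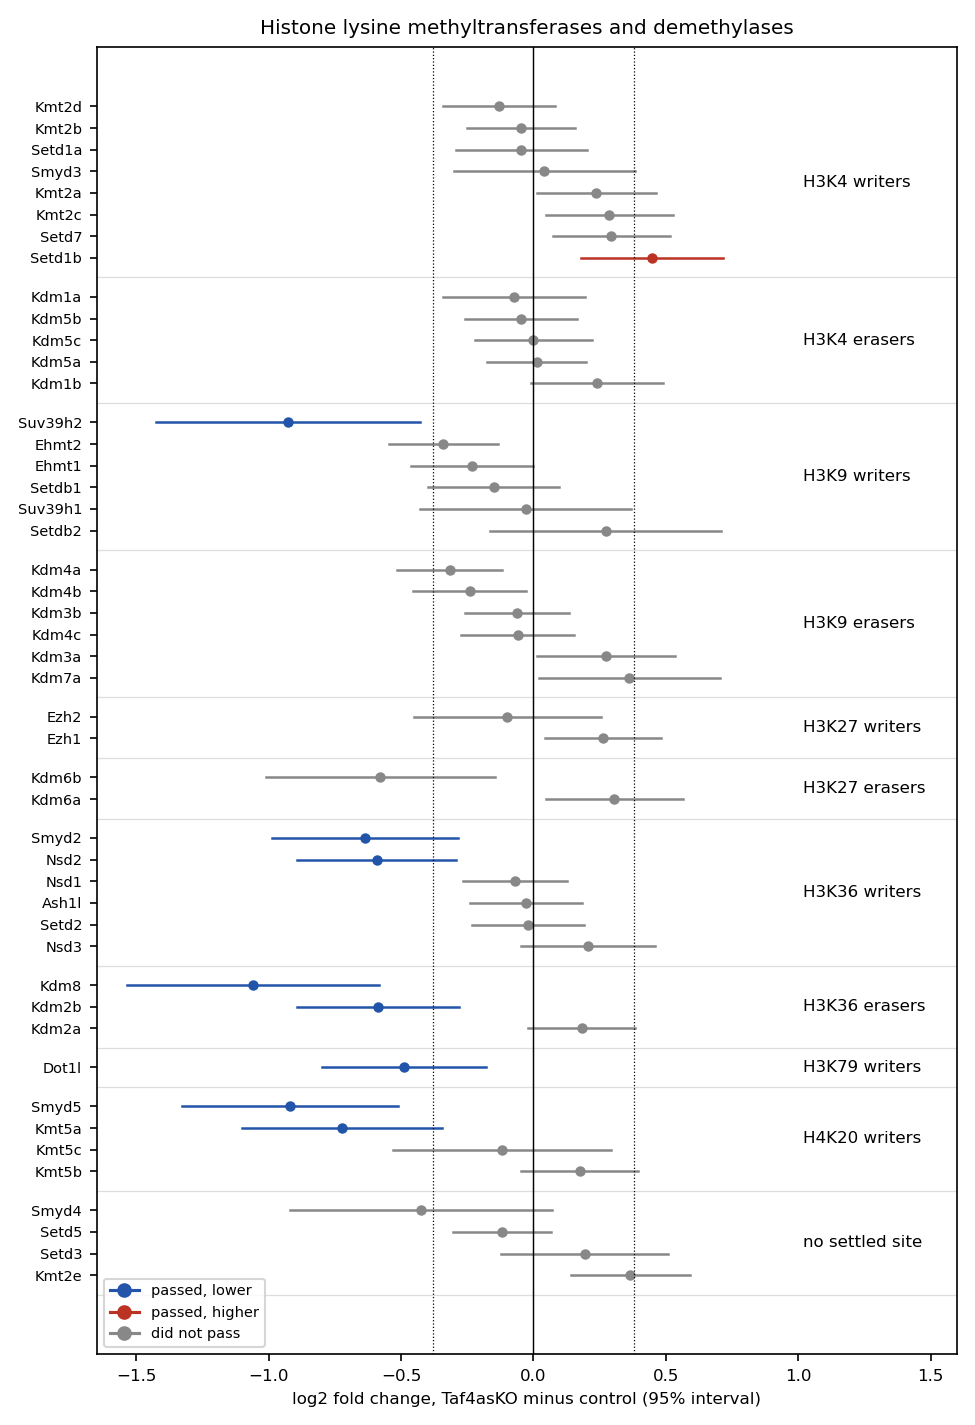
Log2 fold change (Taf4asKO minus control, horizontal axis) of each of the 47 genes with its 95% limma interval, grouped by target residue and by writer or eraser. Dotted lines mark a 1.3-fold change, and Kdm8 at -1.06, Suv39h2 at -0.93 and Smyd5 at -0.92 lie farthest to the left while Setd1b at 0.45 is the 1 gene past the threshold on the right.

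Of the 6 H3K9 writers, Suv39h2 was lower and the others did not pass. SUV39H1 and SUV39H2 are paralogs that trimethylate H3K9 in pericentric heterochromatin. Suv39h2 (chr2:3455815-3475031, - strand) was read at 75, 92 and 74 normalized counts in control and at 50, 35 and 41 in the libraries labelled Taf4asKO. All control values lay above all Taf4asKO values, with means of 80.3 ± 10.1 and 42.0 ± 7.55 (SD, n = 3 each). The log2 fold change was -0.93 (SE 0.22, adjusted p = 0.0245), a 1.90-fold lower level. Suv39h2 was the least abundant member per kb of exon in both groups. Its call was lost without Taf4asKO replicate 2 (adjusted p = 0.110) and without Taf4asKO replicate 3 (adjusted p = 0.0937). The study singled out Suv39h2 and Smyd5 from these same libraries, so their falls here are not independent evidence, and exons of Dclre1c and Gm13184 on the opposite strand overlap Suv39h2, so that without knowledge of the strand setting in counting a share of its reads is uncertain.

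Suv39h1, the X-linked paralog, was read at 147, 135 and 114 in control and at 154, 119 and 116 in the libraries labelled Taf4asKO. The groups overlapped, and the log2 fold change was -0.03 with a 95% interval from -0.43 to 0.37. Per kb of exon, the ratio of Suv39h2 to Suv39h1 was 0.610, 0.814 and 0.776 in control against 0.388, 0.351 and 0.422 in the libraries labelled Taf4asKO, so that Suv39h2 held a smaller part of the pair in each Taf4asKO library. The difference between the paralogs was not tested.

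Among the other H3K9 writers, none passed the threshold. Ehmt2, which encodes the euchromatic dimethyltransferase G9a, was read at 1783, 1842 and 1650 in control and at 1450, 1398 and 1317 in the libraries labelled Taf4asKO. The groups did not overlap and the adjusted p was 0.0390, but the change of 1.27-fold (log2 -0.34) was under the fold limit. Without control replicate 3 it passed (log2 -0.39, adjusted p = 0.0407). Its partner Ehmt1 (GLP) had a log2 fold change of -0.23, Setdb1, whose product is recruited by KAP1, of -0.15, and Setdb2 of 0.27, with adjusted p of 0.170, 0.408 and 0.394. Summed over the 6 H3K9 writers, the level was 658 ± 44.1 normalized counts per kb of exon in control and 549 ± 15.4 in the libraries labelled Taf4asKO (SD, n = 3 each), and the lowest control sum (608) lay above the highest Taf4asKO sum (566). Ehmt2 was the largest contributor to that sum, at 320.3 per kb in control and 253 in Taf4asKO, against 18.2 and 9.52 for Suv39h2.

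The 6 H3K9 erasers are Jumonji (JmjC) demethylases, and none passed the threshold. Kdm4a, which removes methyl groups from trimethylated H3K9 and H3K36, was read at 1223, 1282 and 1222 in control and at 1009, 979 and 1003 in the libraries labelled Taf4asKO. The groups did not overlap, and the change (log2 -0.32, 1.25-fold, adjusted p = 0.0424) was under the fold limit. Kdm4b did not pass (log2 -0.24, adjusted p = 0.131), and Kdm4c had a log2 fold change of -0.06. Kdm3b was at -0.06, while Kdm3a and Kdm7a had positive values of 0.27 and 0.36 with overlapping groups. The median over the 6 erasers was -0.06, against -0.19 over the 6 writers of the same residue.

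H4K20 methylation is built in steps, with KMT5A placing the first methyl group and KMT5B and KMT5C adding the second and the third. Kmt5a (chr5:124439930-124462308, + strand) was read at 501, 555 and 354 in control and at 299, 291 and 251 in the libraries labelled Taf4asKO. All control values were higher than all Taf4asKO values, although control replicate 3 lay well below the other two. The log2 fold change was -0.72 (SE 0.17, adjusted p = 0.0216), 1.65-fold lower, and the call was lost when control replicate 1 (adjusted p = 0.0597) or Taf4asKO replicate 1, 2 or 3 (0.0554, 0.0760 and 0.0984) was left out. Loss of Kmt5b has been linked to exit of MuSCs from quiescence, and its transcript was read at 1301, 1458 and 1308 in control against 1411, 1622 and 1558. These groups overlapped, and the log2 fold change was 0.17 with a 95% interval from -0.05 to 0.39, which leaves no fall of more than 0.05 on the log2 scale inside the interval.

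Kmt5c was read at 249, 155 and 235 in control and at 201, 187 and 189 in the libraries labelled Taf4asKO. Its control values enclosed the Taf4asKO values (log2 -0.12, 95% interval -0.53 to 0.29). Smyd5 (chr6:85431989-85446435, + strand), described as an enzyme for trimethylated H4K20, was read at 232, 298 and 211 in control and at 123, 111 and 156 in the libraries labelled Taf4asKO. Its groups did not overlap, and the log2 fold change was -0.92 (SE 0.18, adjusted p = 0.0106), 1.89-fold lower. Without Taf4asKO replicate 2 its adjusted p was 0.0609. The ratio of Kmt5a to Kmt5b per kb of exon was 1.07, 1.06 and 0.752 in control against 0.589, 0.499 and 0.448 in the libraries labelled Taf4asKO. The summed level of the 4 H4K20 writers was 276 ± 22.7 per kb in control and 227 ± 3.62 in Taf4asKO (SD, n = 3 each), with no overlap. Other sums rose without overlap. That of the 2 H3K27 writers went from 216 ± 7.38 to 244 ± 6.63. That of the 4 proteins without a settled site went from 569 ± 42.9 to 651 ± 24.0. Sums of the H3K4 and H3K36 writers, and of the erasers of every residue, overlapped between the groups.

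**Figure D2:**
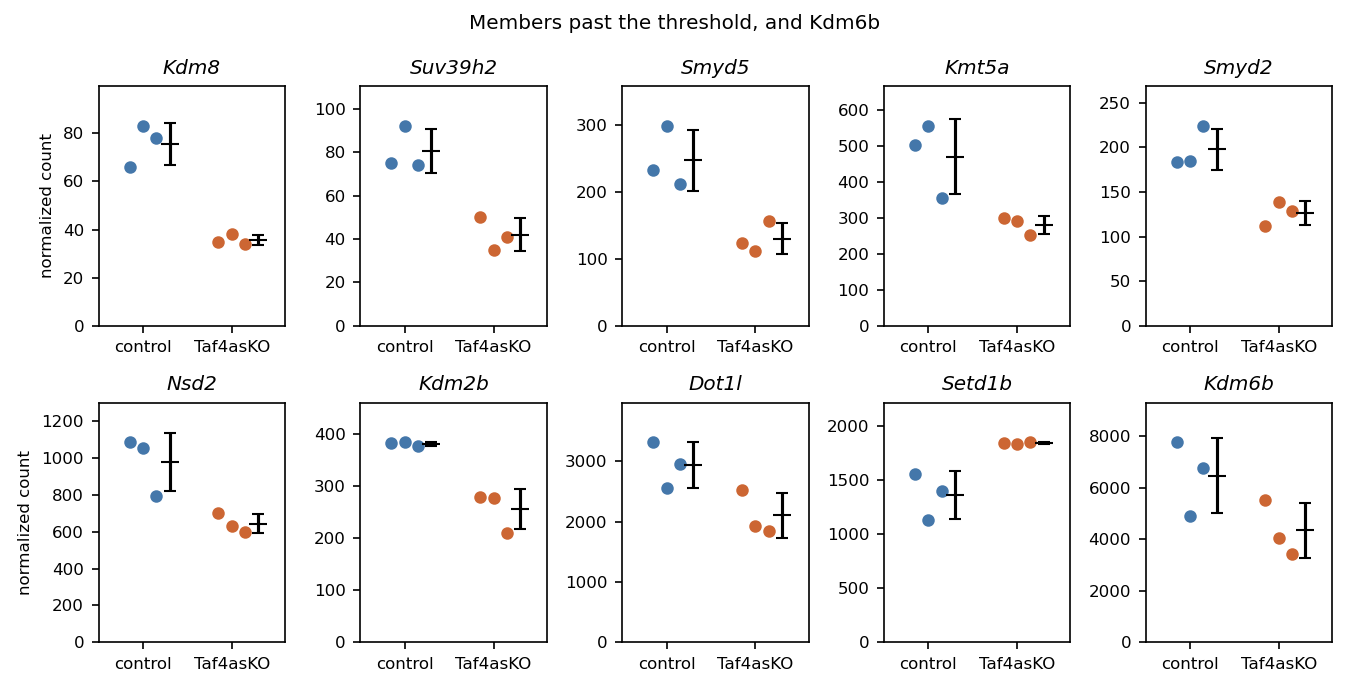
Normalized counts in each library (points) with mean and SD (bars, n = 3 per group) for the 9 genes past the threshold and for Kdm6b, each panel on its own axis from 0. In the 8 genes that were lower, every Taf4asKO library lies below every control library (Kdm8 34 to 38 against 66 to 83), Setd1b shows the opposite order, and the Kdm6b groups overlap.

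H3K36 methylation had 4 of the 9 enzymes grouped with it past the threshold, 2 writers and 2 erasers, all lower, where 6.71% of all tested genes were. Among tested genes with a mean of at least 50, 9.71% were lower. Kdm4a, Kdm4b and Kdm4c, which also act on trimethylated H3K36, were grouped with the H3K9 erasers, and none of them passed. The H3K36 group as a whole was not tested. Nsd2 (chr5:33820725-33897966, + strand), a dimethyltransferase of H3K36, was read at 1082, 1053 and 793 in control and at 698, 630 and 598 in the libraries labelled Taf4asKO. The groups did not overlap, and the log2 fold change was -0.59 (SE 0.13, adjusted p = 0.0186). The call was lost without control replicate 1 (adjusted p = 0.0565), Taf4asKO replicate 2 (0.0853) or Taf4asKO replicate 3 (0.0889). The related Nsd1 and Nsd3 and the dimethyltransferase Ash1l did not pass (log2 -0.07, 0.21 and -0.03), nor did Setd2, the enzyme of H3K36 trimethylation that travels with RNA polymerase II (log2 -0.02, 95% interval -0.23 to 0.19). The Nsd1 to Nsd2 ratio per kb of exon was 4.98, 5.26 and 6.34 in control against 7.46, 7.96 and 8.33 in the libraries labelled Taf4asKO. An exon of Nelfa on the opposite strand overlaps Nsd2.

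Smyd2 (chr1:189880492-189922363, - strand), a SET and MYND domain enzyme that methylates H3K36 and non-histone proteins, was read at 184, 185 and 224 in control and at 112, 139 and 129 in the libraries labelled Taf4asKO. All control values were above all Taf4asKO values (log2 -0.64, SE 0.16, adjusted p = 0.0264). Leaving out control replicate 3 (adjusted p = 0.0763) or any one of Taf4asKO replicates 1, 2 and 3 (0.0964, 0.0694 and 0.0935) ended the call. The ratio of Smyd2 to Smyd3, a family member grouped with the H3K4 writers, was 2.85, 2.99 and 3.12 per kb in control against 1.99, 1.91 and 1.69 in the libraries labelled Taf4asKO. Gm37422 overlaps Smyd2 exons on the opposite strand.

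Kdm8 (chr7:125444676-125462269, + strand), a JmjC protein described as a demethylase of dimethylated H3K36, had the largest fall of the 47 members. It was read at 66, 83 and 78 in control and at 35, 38 and 34 in the libraries labelled Taf4asKO. The groups were well apart, with means of 75.7 ± 8.74 and 35.7 ± 2.08 (SD, n = 3 each). The log2 fold change was -1.06 (SE 0.21, adjusted p = 0.0112), 2.08-fold lower, and it was the 1 member that also passed with a fold limit of 2. Kdm8 had the lowest mean of all members at 55.7 normalized counts, and its adjusted p was 0.0573 without Taf4asKO replicate 3.

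KDM2A and KDM2B bind unmethylated CpG islands and demethylate H3K36, and KDM2B also brings a Polycomb complex to these islands. Kdm2b (chr5:122870665-122989823, - strand) was read at 383, 384 and 377 in control and at 279, 277 and 211 in the libraries labelled Taf4asKO. The controls were nearly equal, and all 3 Taf4asKO values lay below them (log2 -0.59, SE 0.14, adjusted p = 0.0215). The call was lost without control replicate 1 (adjusted p = 0.0508), Taf4asKO replicate 2 (0.0596) or Taf4asKO replicate 3 (0.101). Kdm2a was read at 2190, 1981 and 2210 in control and at 2484, 2420 and 2329 in the libraries labelled Taf4asKO. Its values were higher without overlap but did not pass (log2 0.18, adjusted p = 0.216), and the ratio of Kdm2a to Kdm2b per kb was 4.30, 3.88 and 4.41 in control against 6.70, 6.57 and 8.30. Kdm2b shares exon sequence with A930024E05Rik and Rnf34 on the opposite strand and with Gm44574 on its own strand.

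DOT1L is the methyltransferase of H3K79, a residue in the globular part of H3. Dot1l (chr10:80755206-80795461, + strand) was read at 3312, 2554 and 2959 in control and at 2531, 1934 and 1849 in the libraries labelled Taf4asKO. The lowest control value was only slightly above the highest Taf4asKO value. The log2 fold change was -0.49 (SE 0.14, adjusted p = 0.0453), 1.40-fold lower, and Dot1l was the most abundant of the lower members, at 338 normalized counts per kb in control and 242 in Taf4asKO. The call was lost without control replicate 1 (adjusted p = 0.128) or 3 (0.0944), without Taf4asKO replicate 2 or 3 (0.179 for both), with total-count scaling (0.0993) and after adjustment for GC content and exon length (0.110).

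**Figure D3:**
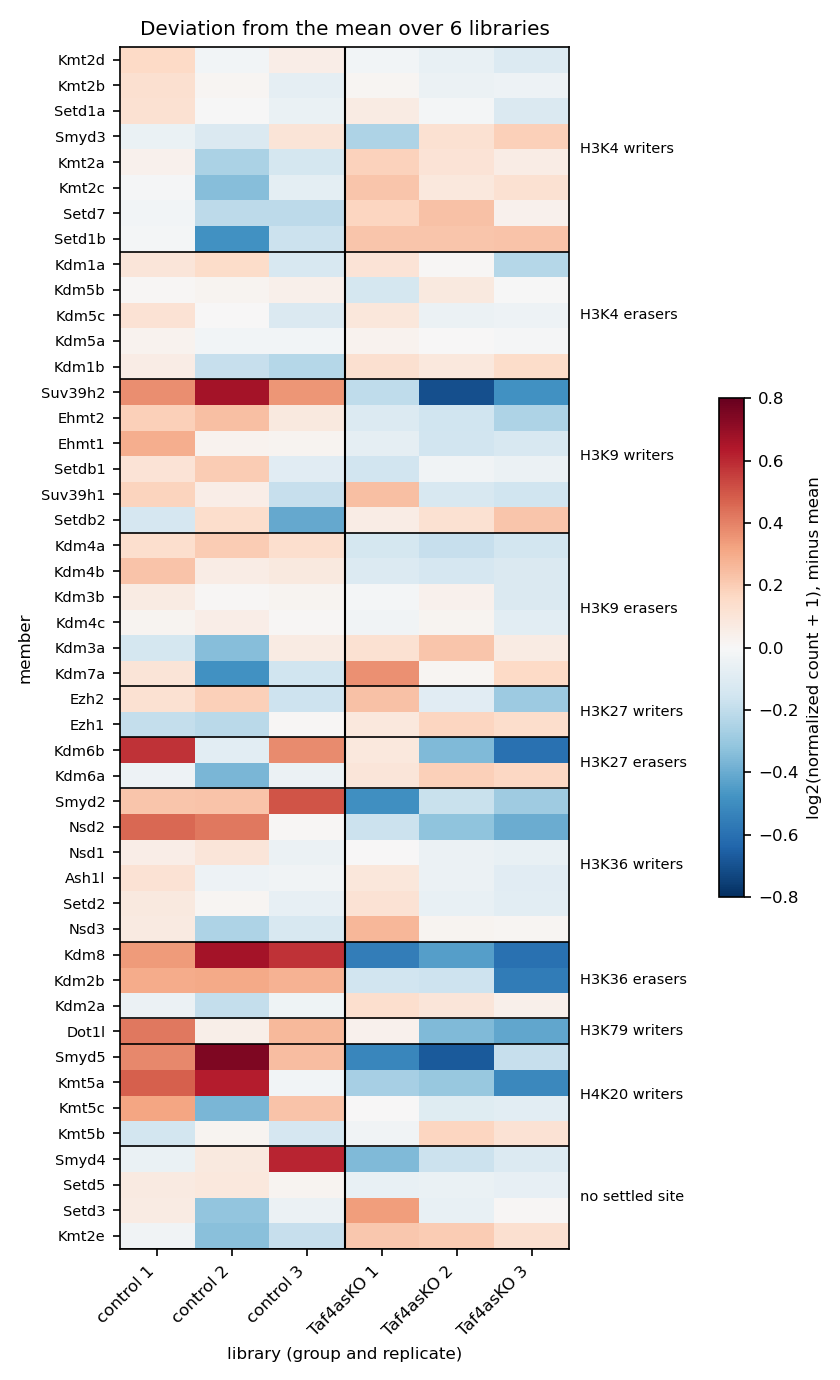
Deviation of log2(normalized count + 1) from the mean over the 6 libraries (colour scale from -0.8 to 0.8) for each gene (rows, by residue) in each library (columns). Blue cells in the 3 Taf4asKO columns run through Suv39h2, Smyd2, Nsd2, Kdm8, Kdm2b, Smyd5 and Kmt5a, while the H3K4 erasers show pale cells in all 6 columns.

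The H3K4 writers include the MLL family (Kmt2a to Kmt2d) and the COMPASS enzymes SETD1A and SETD1B, which methylate H3K4 at promoters and enhancers. Of the 8, Setd1b (chr5:123142193-123168629, + strand) passed upwards. It was read at 1560, 1128 and 1400 in control and at 1843, 1837 and 1848 in the libraries labelled Taf4asKO. The Taf4asKO values were nearly equal, and all were above the controls (log2 0.45, SE 0.12, adjusted p = 0.0371, 1.36-fold). Only without control replicate 1 was the call kept (log2 0.55, adjusted p = 0.0196). Without control replicate 2, the lowest, the fold fell to 0.32 on the log2 scale, under the limit, and without control replicate 3 or Taf4asKO replicate 1, 2 or 3 the adjusted p was between 0.0597 and 0.130. The call was also lost with upper-quartile scaling (adjusted p = 0.0788) and total-count scaling (0.101). Its paralog Setd1a was read between 407 and 480 in all libraries (log2 -0.05), and the Setd1b to Setd1a ratio per kb was 1.83, 1.44 and 1.85 in control against 2.25, 2.37 and 2.56 in the libraries labelled Taf4asKO.

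The other H3K4 writers did not pass. Kmt2a, Kmt2c, which monomethylates H3K4 at enhancers, and Setd7 had non-overlapping higher values (log2 0.24, 0.29 and 0.29, adjusted p of 0.154, 0.110 and 0.0801). Kmt2d had the highest counts of all members (9403 to 11360) and a log2 fold change of -0.13, and Kmt2b and Smyd3 were at -0.05 and 0.04. The H3K4 erasers showed small differences, and none passed. Kdm1a (LSD1), Kdm5a, Kdm5b and the X-linked Kdm5c lay between -0.07 and 0.01, and Kdm1b at 0.24. Kdm5c was read at 1390, 1288 and 1185 in control and at 1365, 1241 and 1250 in the libraries labelled Taf4asKO, and the 95% interval of its log2 fold change ran from -0.22 to 0.22.

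EZH1 and EZH2 are the alternative catalytic subunits of PRC2, with EZH2 typical of dividing cells and EZH1 of resting ones. Ezh1 was read at 1141, 1125 and 1316 in control and at 1385, 1467 and 1437 in the libraries labelled Taf4asKO. It was higher in each Taf4asKO library than in each control but did not pass (log2 0.26, SE 0.10, adjusted p = 0.109). Ezh2 was read at 385, 405 and 316 against 417, 333 and 289, with overlap (log2 -0.10, 95% interval -0.45 to 0.26). Per kb of exon Ezh1 exceeded Ezh2 in every library, 2.49 to 3.74 times in control and 2.98 to 4.46 times in the libraries labelled Taf4asKO, and these ranges overlapped.

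The H3K27 demethylases had fold changes of opposite sign, and neither passed. Kdm6b (chr11:69398508-69413675, - strand), which encodes the inducible demethylase JMJD3, was the most abundant member per kb of exon in both groups (931 and 625 normalized counts per kb). It was read at 7759, 4905 and 6766 in control and at 5520, 4069 and 3443 in the libraries labelled Taf4asKO. The groups overlapped because control replicate 2 was below Taf4asKO replicate 1, while each Taf4asKO library was below the control of the same replicate number. The log2 fold change was -0.58 (SE 0.19, adjusted p = 0.0799), and blocking on the replicate number gave an adjusted p of 0.00759, which passed. With that block, 9 of the 47 members were lower and 1 higher, where 8.98% and 9.09% of all tested genes were. Kdm6b also passed without Taf4asKO replicate 1 (log2 -0.77, adjusted p = 0.0434), without control replicate 2 (log2 -0.77, adjusted p = 0.0241) and with a covariate of fibro-adipogenic markers (adjusted p = 0.0277). Kdm6bos overlaps Kdm6b on the opposite strand. Kdm6a (UTX), which is X-linked, was read at 668, 532 and 664 in control and at 735, 785 and 772 in the libraries labelled Taf4asKO, higher without overlap (log2 0.31, adjusted p = 0.115).

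Kdm5c and Kdm6a have partners on the Y chromosome, Kdm5d and Uty. Kdm5d was read at 495, 563 and 538 in control and at 632, 671 and 676 in the libraries labelled Taf4asKO, and Uty at 425, 396 and 413 against 468, 499 and 458. Other Y-linked transcripts were present throughout, with Ddx3y between 1203 and 1889. Eif2s3y was read at 464, 458 and 415 in control and at 685, 701 and 672 in the libraries labelled Taf4asKO, past the threshold upwards (log2 0.62, adjusted p = 0.00422). Xist, which is transcribed from the inactive X chromosome, was at 7, 5 and 8 in control and at 22, 27 and 38 in the libraries labelled Taf4asKO, also past the threshold upwards (log2 1.95, adjusted p = 0.00795). All 5 of these sex-linked genes had positive log2 fold changes, and Y-linked transcripts far exceeded Xist in libraries of both groups.

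Of the 4 proteins with no settled histone site, none passed. Kmt2e (MLL5) was read at 3486, 2817 and 3134 in control and at 4137, 4097 and 3892 in the libraries labelled Taf4asKO, higher without overlap, with a change of 1.29-fold that was under the fold limit (log2 0.37, adjusted p = 0.0401). It passed without control replicate 1 (log2 0.44, adjusted p = 0.0298). Exons of Srpk2 on the opposite strand overlap Kmt2e. Smyd4 was read at 73, 80 and 116 in control and at 59, 67 and 70 in the libraries labelled Taf4asKO, and its values were lower without overlap but spread widely (log2 -0.43, SE 0.22, adjusted p = 0.238). Setd5 was at -0.12, and Setd3, the actin histidine methyltransferase, at 0.19.

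**Figure D4:**
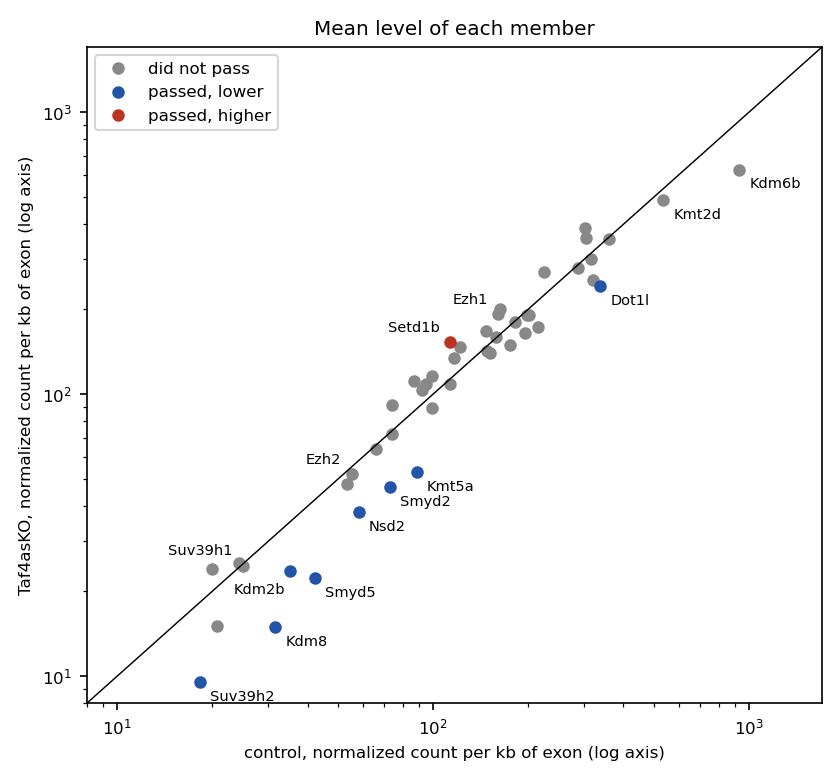
Mean level of each gene in control (horizontal log axis) against Taf4asKO (vertical log axis), in normalized counts per kb of exon, with the line of equal levels. Levels span from Suv39h2 at the lower left (18.2 and 9.52) to Kdm6b at the upper right (931 and 625), and 7 of the 8 genes that were lower lie below 100 per kb in control, Dot1l being the exception.

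Compared per kb of exon, the control level fell from Kdm6b (931) and Kmt2d (534) over Setd2 (360) and Dot1l (338) to Suv39h1 (25.0), Smyd3 (24.3), Smyd4 (20.7), Setdb2 and Suv39h2 (18.2). The last 5 differed by less than 1.5-fold in control. The 8 members that were lower had a median of 254 normalized counts and a median exon length of 5578 bases, against 1299 and 8304 for the 38 that did not pass. Their GC content was 51.7% against 47.9%. Over all members the median SD of log2 values within a group was 0.115, against 0.262 over all tested genes, and it was 0.205 in the 8 that were lower. Once libraries were adjusted for GC content and exon length, 7 members were lower and 1 higher, with 5.87% and 5.75% of all tested genes. Exons of 19 of the 47 members overlapped a gene on the opposite strand.

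By side, 6 of the 27 writers were lower and 1 higher, and 2 of the 16 erasers were lower and 0 higher by limma, where 6.71% and 5.93% of all tested genes were (with an unadjusted p under 0.05 in 13 writers and 8 erasers, and in 28.8% of all tested genes). The median log2 fold change was -0.05 for both sides. By residue, the medians were -0.59 for the 3 H3K36 erasers, -0.42 for the 4 H4K20 writers, -0.19 for the 6 H3K9 writers, -0.05 for the 6 H3K36 writers and 0.14 for the 8 H3K4 writers. Kdm4a, Kdm4b and Kdm4c were counted with the H3K9 erasers alone. Differences between residues were not tested.

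Genes that work with these enzymes were read from 5 lists, which together held 77 genes, 75 of them in the table and 73 tested. Of these, 6 were lower and 2 higher, where 6.71% and 5.93% of all tested genes were, and their median log2 fold change was -0.03. The H3K9 readers and cofactors had 3 of 11 tested genes lower. Uhrf1, which links H3K9 methylation to maintenance of DNA methylation, was read at 110, 172 and 75 in control and at 52, 46 and 33 in the libraries labelled Taf4asKO (log2 -1.37, SE 0.31, adjusted p = 0.0176). Its groups did not overlap, although the controls spread widely. Trim28, which encodes KAP1, the recruiter of SETDB1, fell by 0.58 on the log2 scale (adjusted p = 0.0124), and Wiz, a zinc finger partner of G9a and GLP, by 0.44 (adjusted p = 0.0208). The HP1 genes Cbx1, Cbx3 and Cbx5 did not pass.

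Of the 11 tested COMPASS and MLL partners, Hcfc1 was lower (log2 -0.47, adjusted p = 0.0112). None of the 11 PRC2 partners and none of the 12 LSD1 and KDM5 cofactors passed by limma, while 4 and 1 of them had an unadjusted p under 0.05. Among the 28 other SET, PRDM and JmjC genes tested, Riox2, a JmjC hydroxylase, was read at 192, 193 and 204 in control and at 127, 122 and 116 in the libraries labelled Taf4asKO. It was lower in each of them (log2 -0.69, adjusted p = 0.0113). Phf8, an X-linked JmjC demethylase, was higher, with 529, 425 and 546 in control against 809, 642 and 692 (log2 0.52, adjusted p = 0.0321). Prdm8 was also higher (95% interval of the log2 fold change 0.38 to 1.62, adjusted p = 0.0417), from 52, 28 and 34 to 61, 75 and 90. Under blocking on the replicate number, Epop, Prdm10 and Prdm16 passed in addition, for 8 lower and 3 higher. Without Taf4asKO replicate 2, and without Taf4asKO replicate 3, none of the partner genes passed by limma.

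**Figure D5:**
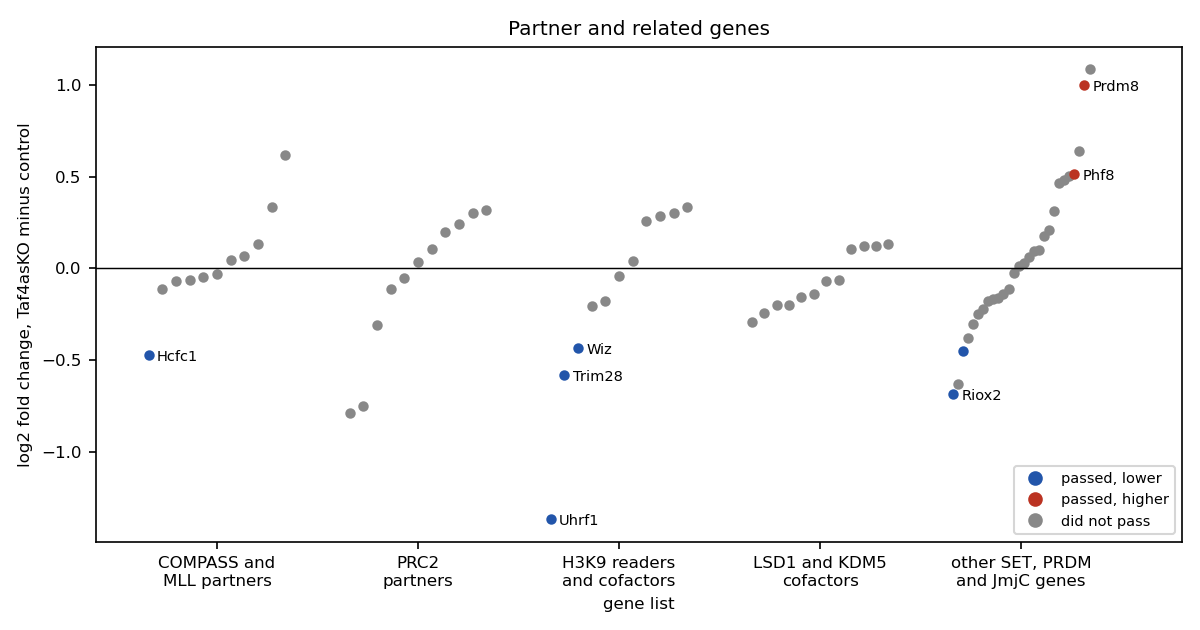
Log2 fold change (Taf4asKO minus control, vertical axis) of the 73 tested partner and related genes in 5 lists, each point a gene, ordered by value within its list. Of the 6 lower genes 5 are labelled (Uhrf1 lowest at -1.37), as are the 2 higher ones (Prdm8 and Phf8), and no gene of the PRC2 and LSD1 lists is coloured.

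Each of the 9 calls on the enzymes was lost in at least 1 fit that left out a library, although the fold changes moved little in many of these fits. Smyd2 was at -0.71 without Taf4asKO replicate 2, Kmt5a at -0.77 without Taf4asKO replicate 1 and Suv39h2 at -0.92 without Taf4asKO replicate 3, while Dot1l was smaller at -0.40 without control replicate 1 and Kdm2b at -0.45 without Taf4asKO replicate 3. Of the 8 members that were lower, Kdm8 alone passed without Taf4asKO replicate 2 (log2 -1.10, adjusted p = 0.0446) and Smyd5 alone passed without Taf4asKO replicate 3 (log2 -1.06, adjusted p = 0.0203). With these libraries left out, 621 and 595 of all tested genes were lower, against 1246 with all 6 libraries. The direction of all 9 members past the threshold was the same in each of the 6 fits that left out a library.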

How the data were processed

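RNA-seq was analysed in 3 control and 3 Taf4asKO libraries of freshly isolated MuSCs, grouped by genotype label. Per the study's methods and the submitters' processing notes, the authors trimmed single-end reads (Trimmomatic 0.39), aligned them to mm10 (STAR 2.6.0c), removed multi-mapping reads, counted reads over exons without those overlapping several genes (featureCounts 1.6.0) and normalized with DESeq2 1.14.1. Strand use in counting is not given in the sources used here. The deposited values are a score: the authors' size-factor-normalized counts, rounded to whole numbers, as inferred from the values (of the first 60 whole numbers, 9, 7 and 4 were held by fewer than 5 genes in control replicates 1 and 2 and Taf4asKO replicate 2, and 0 in the other 3 libraries). A count model was not used because reads are not given.

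The test was limma 3.58.1 (R 4.3.3) on genes with a mean of at least 5 (trended eBayes, two-sided, no covariate), applied to log2(value + 1), a scale that understates the change of weakly expressed genes. A gene passed with a Benjamini-Hochberg adjusted p under 0.05 over all tested genes and a fold of at least 1.3. This test was also run on simulated data with known changes of 2-fold in genes with a mean of at least 50. Smaller changes and paired libraries were not simulated. Total normalized counts per library are no read depth, and precision is given by the SE and the spread between libraries.

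The members, lists and tests were chosen with earlier results of these data known. All members are named. Values in every library are given for members past the threshold or at least 1.3-fold apart, the Ezh, Suv39h and Kmt5 families, Kdm5c and Kdm6a, and a few others (Ehmt2, Kdm4a, Kdm2a and Kmt2e) chosen after their values were seen. Partner genes past the threshold are named, except 1 that is not reported here.

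Replicate numbers come from the titles. Deviations from the group means of same-numbered libraries correlated across genes at 0.235, 0.126 and 0.150 (other pairings -0.149 to 0.014). Deviations within a group are not independent of each other, so these correlations do not settle whether the libraries are paired. The main test did not use the numbers, and a fit with the number as a block was an alternative. Other alternatives were scaling, limma-voom, robust shrinkage, limma treat, filters, limits, a pseudocount of 0.1, GC content and exon length adjustment, a fibro-adipogenic covariate and leaving out each library (21 settings in all). Gene positions are as in the table. Exon lengths, overlaps and GC content came from GENCODE M21 (mm10), in which 99.8% of identifiers were found and 75.7% of them had the same position. Promoters came from RefSeq (GRCm38.p6), with the start nearest to the table's 5′ end, and were matched for 34 of the 47 members. Figures were drawn with matplotlib 3.10.9.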

Additional observations from a re-analysis of the deposited data

How the results depend on the processing

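Of 987 values of single members under alternatives, 887 kept direction and side of the threshold, 57 lost the threshold, 7 gained it and 36 changed sign. The counts of 8 lower and 1 higher member, and of 6 and 2 partner genes, were 0 in each case with limma treat (304 of all tested genes lower) and with an adjusted p under 0.01 (545 lower), and 1 and 0 for both groups of genes with a fold of at least 2 (520 of all tested genes lower and 330 higher). With upper-quartile scaling no member and no partner gene was higher (0 and 0), and with total-count scaling 0 members and 1 partner gene were. Leaving out 1 library gave 1 to 9 lower and 0 to 2 higher members, and 0 to 8 lower and 0 to 7 higher partner genes, while 595 to 1505 of all tested genes were lower and 341 to 1616 higher. With the replicate block, 9 members were lower and 1 higher, Kdm6b being the call it added, and it changed no other call among the members. With GC content and exon length adjusted together with the replicate block, 5 partner genes were higher and 6 lower, where 1737 of all tested genes were higher and 1552 lower. The cause of these differences was not tested beyond the fewer samples and stricter limits that define them. Values that changed sign were small. With upper-quartile scaling Kdm5a was -0.021. With GC content and exon length adjusted, without and with the replicate block alike, Kmt2b was 0.046, Kmt2d 0.031, Setd1a 0.025, Smyd3 -0.026, Kdm5a -0.10, Kdm5c 0.020 and Kmt5c 0.024. Leaving out single libraries gave log2 ranges across 0 for Kmt2b (-0.096 to 0.0032), Setd1a (-0.090 to 0.0022), Kdm5c (-0.059 to 0.056), Suv39h1 (-0.16 to 0.051), Setd2 (-0.081 to 0.018), Ash1l (-0.084 to 0.019), Kmt5c (-0.33 to 0.010), Smyd3 (-0.044 to 0.18), Kdm5b (-0.098 to 0.013), Kdm1a (-0.16 to 0.021) and Ezh2 (-0.24 to 0.023). Read depth is not given in the table, so no counting interval could be set for the low members.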
